A study of Mus musculus with 32 samples.

Results

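The libraries described here are the 4 that profiled polyadenylated RNA of mouse retinal organoid cultures at day 2 of differentiation, 2 of the WT line and 2 of the Mettl3 KO line, out of 32 in the series. WT is the Rx:GFP embryonic stem cell line, and KO is its derivative in which Mettl3 was knocked out. The labels give both groups as organoids treated with AGN, which the medium held at 0.1 µM, and neither was given dexamethasone (Dex). The labels name a single KO line and do not say whether it is a clone or how the gene was disrupted. Day 0 and day 4 libraries of both lines were used to place day 2 in time. The day 4 libraries and the fusion libraries below were also in 0.1 µM AGN, and none is given for day 0. Comparisons of day 2 with day 0 thus also span AGN, and time and AGN cannot be told apart in them. A further 4 libraries of the KO line carrying a METTL3-GRBD fusion at day 2, without and with 10 µM Dex, gave a comparison that shares no library with KO against WT; per the labels the fusion is cytosolic without Dex and nuclear with it.

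METTL3 is the catalytic subunit of the complex that places N6-methyladenosine (m6A) on messenger RNA, a mark read by YTH-domain proteins and tied to splicing, export, translation and decay. Embryonic stem cells leave the naive state by shutting off factors such as Nanog, Klf4 and Esrrb, and pass through a formative state marked by Fgf5, Otx2 and Dnmt3b before they become neural. Many naive and core transcripts carry m6A, and stem cells without METTL3 are known for a delayed exit from pluripotency. Cultures of stem cells can also give rise to primitive and visceral endoderm, the extraembryonic layers that express Gata4, Gata6, Sox17 and Dab2.

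Levels are in FPKM, a unit in which fragments are divided by the length of the transcript and by library depth, so that levels can be compared between genes. Changes are differences on the log2(FPKM + 1) scale, KO minus WT; for genes at low levels this scale makes a change look smaller than it is. A gene was called at a limma adjusted p (Benjamini-Hochberg) under 0.05, and "rose" and "fell" below are used of called genes. The labels do not say whether the 2 libraries of a group came from separate cultures, so p-values measure only the spread between duplicate libraries. That spread was pooled over the duplicates of all 16 groups in the series, so small p-values do not rest on the WT and KO duplicates at day 2 alone. In a fit of the compared groups alone 8617 genes were called, against 9581. There the limma adjusted p of Nanog was 0.00144, against 3.54e-13, while that of Pou5f1 was 0.00735, against 0.0351. Estimated depth was 40.2 M and 34.0 M fragments (M, mega) for WT and 51.2 M and 32.3 M for KO. Duplicates correlated across genes at Pearson r = 0.9941 for WT and 0.9945 for KO, as a description over genes.

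Mettl3 itself (ENSMUSG00000022160; GRCm38 chromosome 14, 52294841 to 52305128) showed no fall as deposited in the libraries that the labels call KO. It was at 40.2 and 41.2 FPKM in WT and at 38.9 and 40.8 FPKM in KO, and the groups overlapped. The difference was -0.03 ± 0.06 on the log2 scale (SE, limma adjusted p = 0.713), and after median-of-ratios rescaling it was -0.15, which was called (limma adjusted p = 0.0453). A gene's total FPKM cannot show a small deletion or the loss of a protein, so the knockout is known here from the labels alone.

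Of 16276 genes tested, 9581 (58.9%) differed between KO and WT at day 2, 6108 higher in KO (37.5%) and 3473 lower (21.3%). Duplicates differed so little that 6039 of these calls (63.0%) were changes under 0.5. A change of at least 1 was called for 769 genes (4.72%), 577 higher (3.55%) and 192 lower (1.18%). The libraries of the lines did not overlap for 12670 genes (77.8%), 9561 of them also called (58.7%). The excess of higher calls depended on scaling. As deposited 63.8% of calls were higher in KO, and after rescaling 50.6%, when the median change of all genes went from 0.088 to 0.007. Where the median of a list at day 2 is given below, its median after rescaling stands beside it. Counts of list members called at day 2 are to be read against all genes, of which 37.5% were higher and 21.3% lower. After rescaling, 4818 of the 16276 genes were higher and 4702 lower. KO libraries also had more genes at 1 FPKM or above, 13121 and 13116 against 12605 and 12661 in WT. Genes on chromosome 8 had a median change of 0.24 over 858 genes, against 0.08 over the 15418 on other chromosomes; whether this bears on single chromosome 8 genes named below (Klf2, Zfp42, Junb, Nkd1, Dusp4, Irx3, Sox1, Tubb3, Ankrd37, Msmo1, Fto, Cdh1, Col4a1 and Col4a2) was not tested.

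**Figure D1:**
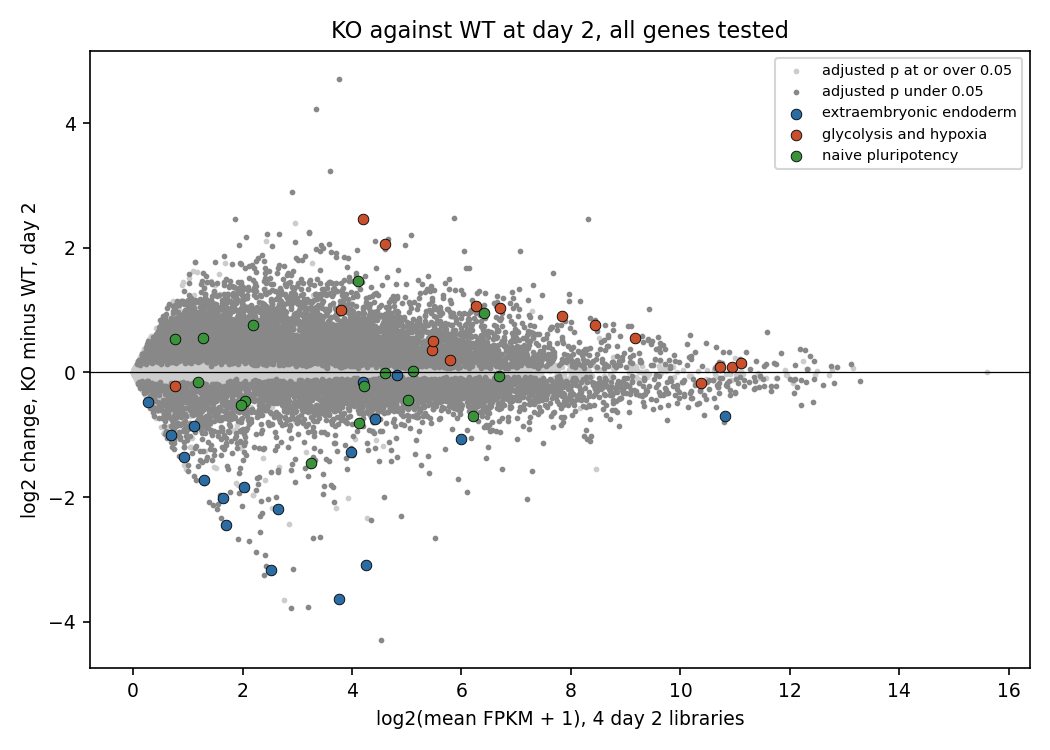
Log2 change of KO minus WT at day 2 (vertical axis) against log2(mean FPKM + 1) over the 4 libraries (horizontal axis) for the 16276 genes tested, with 3 gene lists in colour. All 18 extraembryonic endoderm genes lie below 0, while 14 of 16 glycolysis and hypoxia genes were called higher (11 after rescaling).

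Naive transcripts fell and formative transcripts rose by day 2 in both lines. From day 0 to day 2, 63.4% of all genes changed in WT and 65.6% in KO. Of 16 naive genes, 15 fell and 1 rose in WT, and 15 fell and 1 rose in KO, where 36% and 28.5% of all genes fell. Of 16 formative genes, 15 rose in WT and 14 in KO, against 27.4% and 37.2% of all genes. Despite the organoid label, Pou5f1, the core pluripotency factor, was at 802 and 799 FPKM in WT and at 869 and 886 FPKM in KO. The eye-field gene Rax was at 0.13 and 0.28 FPKM in WT and 0.37 and 0.49 FPKM in KO, so this retinal marker was barely detected in either line. The eGFP reporter row was at 0.22 and 0.27 FPKM in WT and at 0.34 and 0.1 FPKM in KO.

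Core pluripotency genes gave calls in both directions, where 37.5% of all genes were higher in KO and 21.3% lower. Of 10 tested, 3 were higher in KO, 2 lower and 5 not called, with a median of -0.03; after rescaling 2 were higher and 6 lower, with a median of -0.15. Nanog (chromosome 6, 122707489 to 122714633), a homeobox factor that holds cells in the naive state, was the member that differed most. It was at 15.3 and 16.1 FPKM in WT and at 32.7 and 34.1 FPKM in KO, a rise of 1.04 ± 0.04 (SE, limma adjusted p = 3.54e-13). The groups did not overlap. At day 0 Nanog was at 181 and 173 FPKM in WT and at 188 and 193 FPKM in KO, and from day 0 to day 2 it fell by 3.42 in WT and by 2.48 in KO. The difference between the lines was itself larger at day 2 than at day 0 (by 0.94, limma adjusted p = 7.9e-10), as it was called to differ for 48.9% of all genes. Tdgf1, the Nodal co-receptor Cripto, rose by 0.71. Lin28a, an RNA-binding protein that blocks let-7 maturation, fell by 0.50. Sox2 was at 156 and 155 FPKM in WT and at 154 and 153 FPKM in KO, a difference of -0.02. For Pou5f1 the rise of 0.13 (limma adjusted p = 0.0351) was not kept after rescaling (0.01, limma adjusted p = 0.872), without the filter on low values, or when any 1 of the 4 libraries was left out. Dppa4, a chromatin-binding stem cell protein, fell by 0.44 (limma adjusted p = 0.0368), a call that was not kept when any 1 of the 4 libraries was left out (limma adjusted p = 0.0863 to 0.126).

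Naive genes moved in both directions. Of 16, 5 were higher in KO, 7 lower and 4 not called, where 37.5% of all genes were higher and 21.3% lower. The list median was -0.10 (-0.20 after rescaling), and after rescaling 5 were higher and 9 lower. The higher members were Dppa3, Klf2, Klf4, Tet2 and Prdm14. Dppa3, a maternal factor that guards DNA from demethylation, was at 8.42 and 7.89 FPKM in WT and at 23.7 and 25.0 FPKM in KO, a rise of 1.47 ± 0.11 (SE, limma adjusted p = 6.81e-10). Its difference at day 0 was already 1.46, at a day when 48.2% of all genes were called, 18.4% higher in KO and 29.8% lower. Klf2, a Krüppel-like factor of the naive network, was at 57.2 and 56.7 FPKM in WT and at 112 and 110 FPKM in KO, a rise of 0.95 ± 0.05 (SE, limma adjusted p = 2.22e-11). Klf4, a related factor, rose by 0.76, from a level of 2.49 and 2.27 FPKM in WT to 5.0 and 4.48 FPKM in KO, after 57.2 and 56.5 FPKM as the means of WT and KO at day 0. For each of these 3 the libraries of the lines did not overlap. Among the members that fell, Tcl1, a coactivator of the kinase Akt, changed most, by -1.46 ± 0.12 (SE, limma adjusted p = 5.87e-09). It was at 13.9 and 11.9 FPKM in WT and at 4.28 and 3.8 FPKM in KO. Nr0b1, an orphan nuclear receptor, fell by 0.80, and Spp1, the secreted protein osteopontin, by 0.70. Esrrb and Zfp42, common naive markers, differed by -0.02 and -0.05 and were not called as deposited, but were called lower after rescaling (-0.13 and -0.17, limma adjusted p = 0.0123 and 0.0097).

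Formative genes also split. Of 16, 7 were higher in KO, 4 lower and 5 not called, where 37.5% of all genes were higher and 21.3% lower. The list median was 0.13 (0.014 after rescaling), and after rescaling 6 were higher and 5 lower. Fgf5 (chromosome 5, 98254184 to 98277030), a growth factor and the usual marker of the formative state, was at 35.7 and 37.7 FPKM in WT and at 61.6 and 63.4 FPKM in KO, with no overlap. That is a rise of 0.75 ± 0.09 (SE, limma adjusted p = 6.39e-07). By day 4 the order had turned, with 44.7 and 46.2 FPKM in WT and 31.1 and 26.6 FPKM in KO, and the difference at day 4 minus that at day 2 was -1.39 (limma adjusted p = 6.78e-08). The POU factor Pou3f1 rose by 0.52 and the Wnt receptor Fzd2 by 0.98. Otx2, an anterior homeobox factor, was at 134 and 131 FPKM in WT and at 130 and 129 FPKM in KO, with no call as deposited and a fall of 0.15 after rescaling.

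The members that fell furthest in the formative list were the de novo DNA methyltransferases Dnmt3b and Dnmt3a. Dnmt3b (chromosome 2, 153649450 to 153687730) was at 426 and 423 FPKM in WT and at 204 and 201 FPKM in KO, a change of -1.06 ± 0.03 (SE, limma adjusted p = 1.91e-16). It was also lower at day 0 (-0.90) and at day 4 (-1.23), when 60.5% of all genes were called, 36.5% higher in KO and 24% lower. Dnmt3a fell by 0.85. Dnmt3l, a cofactor without catalytic activity that stimulates both, was at 235 and 229 FPKM in WT and at 77.4 and 76.3 FPKM in KO, a fall of 1.58 ± 0.06 (SE, limma adjusted p = 6.35e-14). These 3 genes had KO libraries below WT with no overlap. In a DNA methylation list of 7 genes that holds Dnmt3l, 1 was higher in KO and 4 lower, with a median of -0.19 (-0.30 after rescaling). Dnmt1, the maintenance enzyme, and Uhrf1, which brings it to replicated DNA, fell by 0.24 and 0.36.

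**Figure D2:**
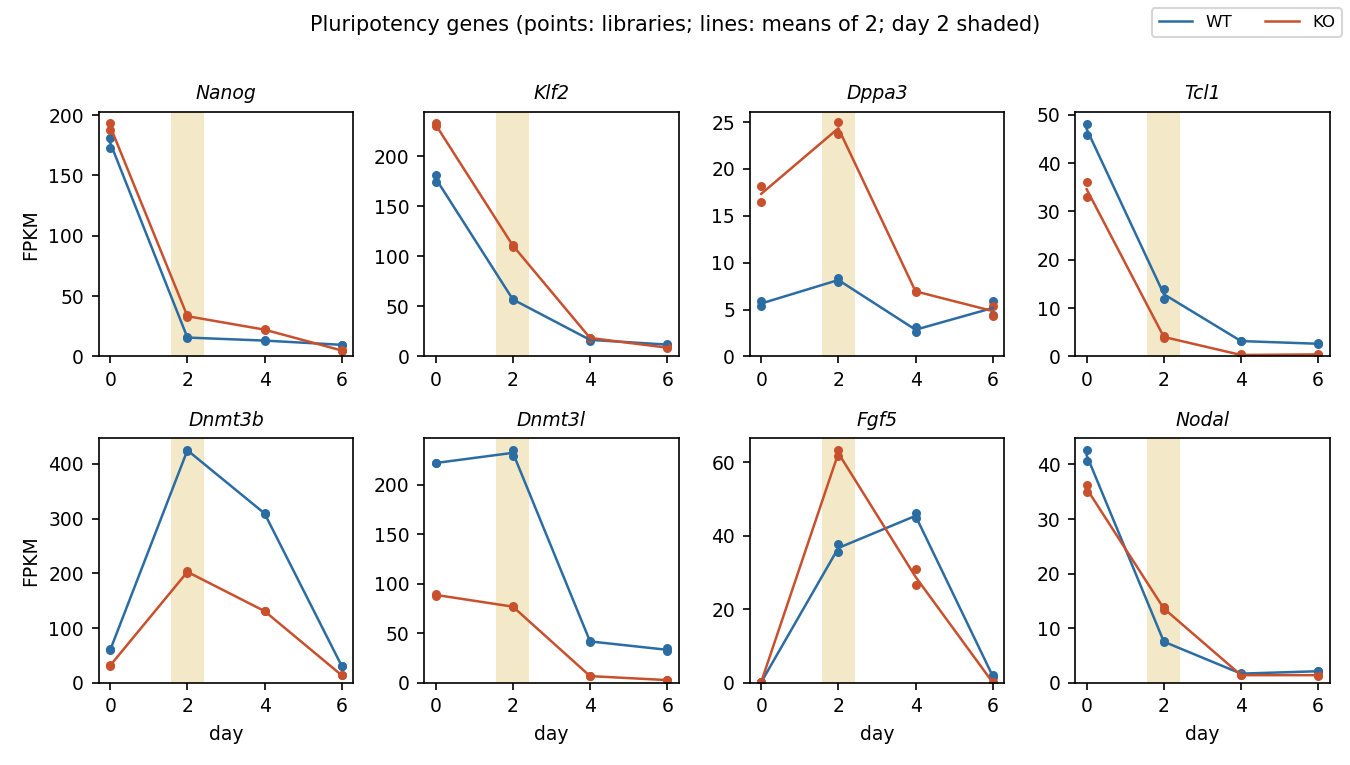
FPKM of 8 pluripotency genes (vertical axis) against day (horizontal axis) in WT and KO, each point a library and each line the mean of 2. At day 2 (shaded) Nanog, Klf2, Dppa3, Fgf5 and Nodal lie higher in KO, and Tcl1, Dnmt3b and Dnmt3l lower.

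Nodal pathway genes were mostly higher in KO at day 2. Of 9 tested of 10, 8 rose and 1 fell (7 and 1 after rescaling), where 37.5% of all genes were higher and 21.3% lower. The list median was 0.78 (0.67 after rescaling), against -0.11 at day 0 and -0.16 at day 4. The ligand Nodal (chromosome 10, 61417972 to 61425338) was at 7.46 and 7.61 FPKM in WT and at 13.9 and 13.3 FPKM in KO, a rise of 0.78 ± 0.06 (SE, limma adjusted p = 1.25e-09). The day 0 levels were 40.6 and 42.7 FPKM in WT and 36.2 and 35.0 FPKM in KO, so Nodal went down in both lines, to a level that was higher in KO. Lefty1, a feedback inhibitor that Nodal signalling switches on, was at 5.13 and 6.76 FPKM in WT and at 13.6 and 14.5 FPKM in KO, a rise of 1.12 ± 0.14 (SE, limma adjusted p = 1.48e-06). Lefty2, its paralog, rose by 0.50, Smad7, an inhibitory Smad, by 1.06, and the type II receptor gene Acvr2b by 0.81. The one member that fell was Foxh1, the Smad partner factor, by 0.16. From day 0 to day 2 the signed difference, KO minus WT, moved up for 8 of the 9 and down for 1, where 35.6% and 13.2% of all genes moved up and down. After rescaling it moved up for 7 and down for 1. From day 2 to day 4 it moved down for 7 members and up for 1, where 42.4% of all genes were called, 22% down and 20.4% up.

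Targets of the FGF and ERK pathway, which drives stem cells out of the naive state, moved unevenly. Of 14, 10 were higher in KO and 3 lower (7 and 4 after rescaling), where 37.5% of all genes were higher and 21.3% lower. The list median was 0.23 (0.11 after rescaling) against -0.34 at day 0. The signed difference moved up from day 0 to day 2 for 12 and down for 1 (9 and 1 after rescaling), against 35.6% and 13.2% of all genes. Its size was larger at day 2 for 7 of the 13 genes called as deposited and at day 0 for 6. Ier3, an immediate early gene, was at 7.51 and 9.05 FPKM in WT and at 42.0 and 37.9 FPKM in KO, a rise of 2.14 ± 0.09 (SE, limma adjusted p = 1.8e-13). The immediate early factors Egr1 and Fos rose by 1.34 and 0.94. Dusp4, a phosphatase that acts on ERK, fell by 0.91, from 72.8 and 72.9 FPKM in WT to 37.97 and 38.56 FPKM in KO.

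The response to LIF, the cytokine that keeps stem cells naive through STAT3, gave 5 genes higher in KO and 4 lower of 10. The shares of all genes were 37.5% and 21.3%. The list median was 0.19 (0.075 after rescaling) and was -0.004 when its chromosome 8 member, Junb, was left out. Socs3, a feedback inhibitor of this pathway, was at 2.56 and 1.94 FPKM in WT and at 13.9 and 14.6 FPKM in KO, a rise of 2.24 ± 0.08 (SE, limma adjusted p = 2.26e-14). At day 0 its means were 88.6 and 94.6 FPKM, so it fell steeply in both lines. Junb, an AP-1 subunit, rose by 1.03, and Gbx2, a homeobox factor downstream of LIF, fell by 0.80.

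Among 16 Wnt pathway genes 8 were higher in KO and 4 lower (7 and 6 after rescaling), with a median of 0.22 (0.14 after rescaling). Of all genes 37.5% were higher and 21.3% lower, shares that also stand beside the BMP and retinoic acid counts below. Axin2, a feedback target that marks active Wnt signalling, was at 2.07 and 2.27 FPKM in WT and at 5.16 and 5.36 FPKM in KO, a rise of 0.98. Nkd1, a second feedback target, rose by 1.11 and the ligand Wnt3 by 0.62. Dkk1, a secreted Wnt inhibitor, was at 1.23 and 1.34 FPKM in WT and at 0.08 and 0.07 FPKM in KO, a fall of 1.09. Of 12 BMP pathway genes 6 were higher and 2 lower (5 and 3 after rescaling), with a median of 0.23 (0.17 after rescaling). The ligand Bmp7, the inhibitor Smad6 and the target Id2 rose by 1.16, 1.14 and 0.90, and Id3 fell by 0.70. Among 13 retinoic acid pathway genes tested of 16, 6 were higher and 4 lower (5 and 4 after rescaling), with a median of 0.075 (0.06 after rescaling). Crabp1, which binds retinoic acid in the cytoplasm, rose by 1.02. Cyp26a1, the enzyme that degrades retinoic acid, was at 8.38 and 8.37 FPKM in WT and at 0.19 and 0.26 FPKM in KO, a fall of 2.94 ± 0.10 (SE, limma adjusted p = 2.09e-14). By day 4 this order was the opposite, with 8.93 and 9.12 FPKM in WT and 33.4 and 31.0 FPKM in KO.

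**Figure D3:**
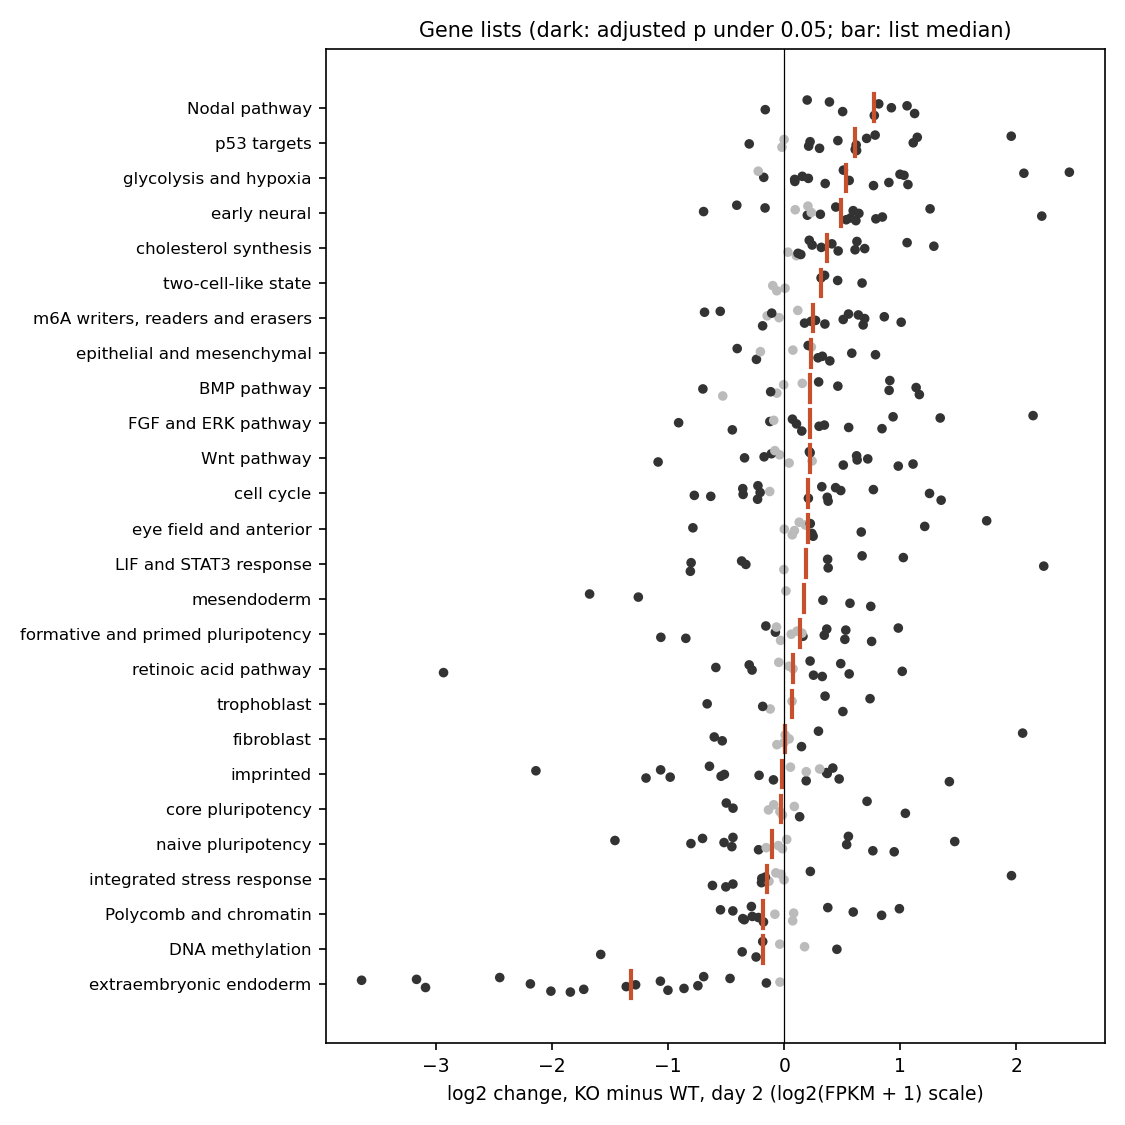
Log2 change of KO minus WT at day 2 (horizontal axis) for the tested members of 26 gene lists (vertical axis), ordered by the list median. Dark points were called, grey points were not, and the bar is the median, which runs from -1.32 for extraembryonic endoderm to 0.78 for the Nodal pathway.

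Genes of the extraembryonic endoderm were lower in KO. Of 18, 17 fell, 12 of them by at least 1, and none rose, where 21.3% of all genes were lower and 37.5% higher. The median was -1.32, and -1.40 after rescaling. In such bulk libraries fewer endoderm cells and less RNA per cell cannot be told apart. The summed level of the list was 2499 and 2494 FPKM in WT and 1509 and 1463 FPKM in KO, most of it from Apoe, an apolipoprotein that other cells make too, which fell by 0.69. Among the transcription factors that define the lineage, Gata4 was at 5.42 and 5.31 FPKM in WT and at 0.85 and 0.7 FPKM in KO, a fall of 1.84 ± 0.07 (SE, limma adjusted p = 3.87e-14). Gata6, the factor that starts the endoderm programme, was at 3.65 and 4.41 FPKM in WT and at 0.2 and 0.29 FPKM in KO, a fall of 2.01 ± 0.10 (SE, limma adjusted p = 3.64e-12). Sox7, an endoderm factor of the Sox family, fell by 1.00, and the visceral endoderm factor Hnf4a by 0.86. WT and KO libraries did not overlap for any of these 4 factors.

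The endocytic receptor of visceral endoderm changed most within this list. Amn (chromosome 12, 111271095 to 111276426) and Cubn (chromosome 2, 13276338 to 13491813) encode amnionless and cubilin, which together form a receptor for vitamin B12 and other nutrients, and Dab2 (chromosome 15, 6299788 to 6440712) encodes an adaptor that links such receptors to clathrin. Amn was at 22.7 and 25.2 FPKM in WT and at 0.89 and 1.11 FPKM in KO, a fall of 3.64 ± 0.15 (SE, limma adjusted p = 2.27e-13). Cubn was at 9.51 and 9.18 FPKM in WT and at 0.16 and 0.14 FPKM in KO, a fall of 3.17 ± 0.05 (SE, limma adjusted p = 2.89e-19). Dab2 was at 32.8 and 33.4 FPKM in WT and at 3.09 and 2.91 FPKM in KO, a fall of 3.09 ± 0.09 (SE, limma adjusted p = 1.46e-15). The 3 genes belong to the 15 largest falls of all genes. Ttr, the carrier of thyroid hormone that visceral endoderm secretes, was at 4.99 and 4.0 FPKM in WT and was listed at 0 in both KO libraries.

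Matrix genes of the lineage fell unevenly. Lama1, a laminin chain of the basement membrane, fell by 2.19, Col4a2, a collagen IV chain, by 1.28, Sparc, a matrix glycoprotein, by 1.07 and Col4a1 by 0.74. Lamb1 fell by 0.15, a call that was not kept without 1 of the KO libraries (-0.12, limma adjusted p = 0.0968), and Lamc1 was not called (-0.04). From day 0 to day 2, 10 of the 18 genes rose and 5 fell in WT, where 27.4% and 36% of all genes did. In KO 5 rose and 4 fell, where 37.2% and 28.5% of all genes did. The difference between the lines was already present at day 0 (median -0.89). By day 2 it moved further down for 9 genes, led by Amn (-2.78), Cubn (-2.61) and Dab2 (-1.79), and moved up for 3. After rescaling it moved down for 9 and up for 1. Among all genes it moved down for 13.2% and up for 35.6%, as deposited. In WT Amn rose from 2.58 and 3.59 FPKM at day 0, and in KO it was at 1.58 and 0.93 FPKM at day 0. Foxa2 and Sox17, endoderm factors that a mesendoderm list holds, fell by 1.26 and 1.68, while Eomes of the same list, a T-box factor, rose by 0.75.

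**Figure D4:**
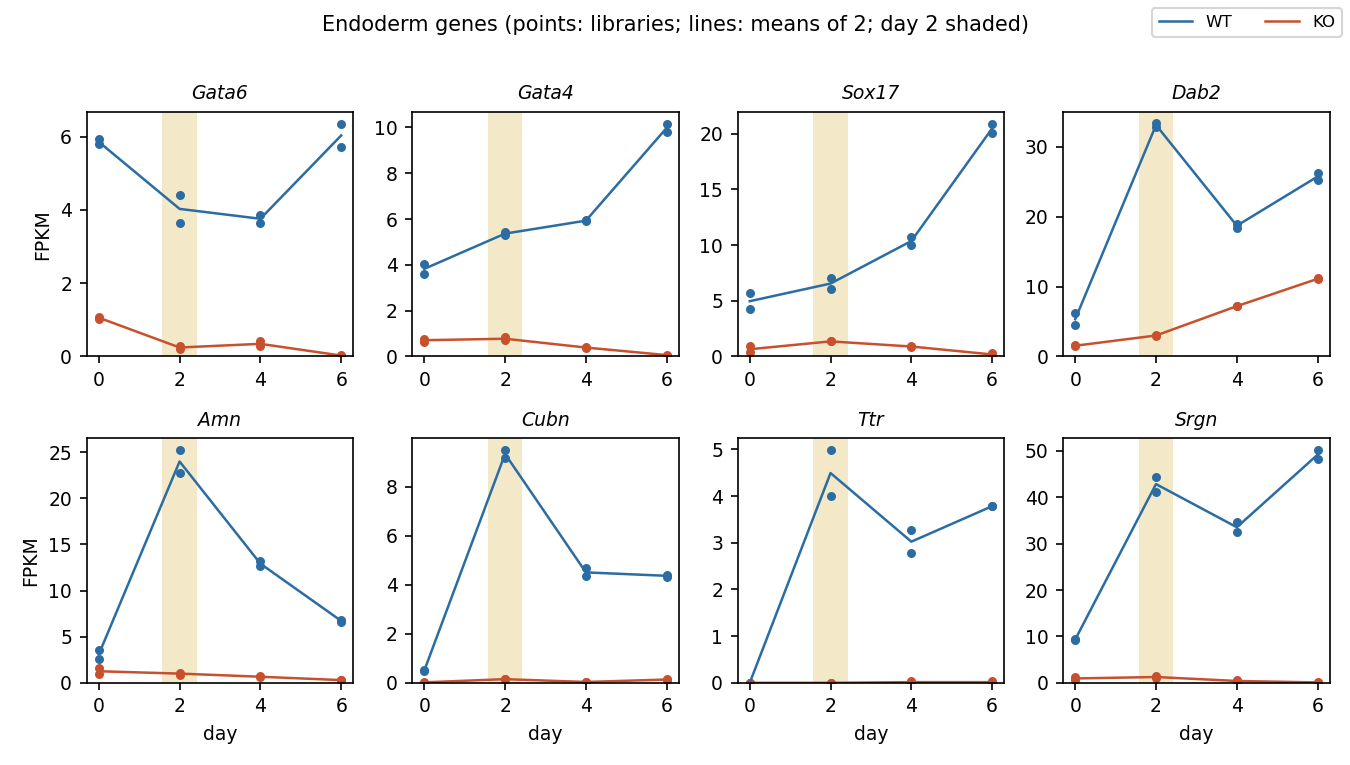
FPKM of 7 endoderm genes and Srgn (vertical axis) against day (horizontal axis) in WT and KO, each point a library and each line the mean of 2. At day 2 (shaded) every KO point lies below every WT point, and Dab2, Amn, Cubn and Ttr peak at day 2 in WT.

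Genes that no list holds were also lower in KO. Srgn (chromosome 10, 62493833 to 62527451), the secretory granule proteoglycan serglycin, was at 41.2 and 44.5 FPKM in WT and at 1.54 and 0.97 FPKM in KO, a fall of 4.29 ± 0.23 (SE, limma adjusted p = 9.71e-12), the largest that the naming rule gave. Pga5, a pepsinogen, fell by 3.15, Aqp8, a water channel, by 3.11, and Ctsh, the lysosomal protease cathepsin H, by 2.65. Tuba3a, an alpha-tubulin, was at 79.2 and 76.2 FPKM in WT and at 11.6 and 11.2 FPKM in KO. Npl, an enzyme of sialic acid breakdown, fell by 2.37, and Pla2g1b, a secreted phospholipase, by 2.31. Cited1, a transcriptional coactivator, was at 16.2 and 16.9 FPKM in WT and at 4.19 and 3.76 FPKM in KO, although its day 0 means were 0.875 FPKM for WT and 1.81 FPKM for KO. Beside these falls stand the lower endoderm markers of KO given above, whose part in them was not tested.

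Genes of glycolysis and of the response to low oxygen were higher in KO. That response works through hypoxia-inducible factors (HIF), which bind a short core, ACGTG, near their targets. Of 16 genes, 14 rose, 4 by at least 1, and 1 fell, where 37.5% of all genes were higher and 21.3% lower. After rescaling 11 were higher and 1 lower. The list median was 0.53 (0.42 after rescaling), against 0.11 at day 0 and 0 at day 4. The 4 that rose by at least 1 were Egln3, Ankrd37, Slc2a3 and Bnip3. RefSeq promoter entries of GRCm38.p6 were matched for 3 of them, and the 250 bases before each annotated start are shown because these genes rose together, 5′ to 3′, with ACGTG on either strand in capitals.
Egln3 (chr12:54203875-54204124, minus strand): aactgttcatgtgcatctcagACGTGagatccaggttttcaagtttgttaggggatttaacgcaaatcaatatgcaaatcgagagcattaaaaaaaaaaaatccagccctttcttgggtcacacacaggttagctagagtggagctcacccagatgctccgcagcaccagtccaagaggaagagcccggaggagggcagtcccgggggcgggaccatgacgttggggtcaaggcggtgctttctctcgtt
Ankrd37 (chr8:45999851-46000100, minus strand): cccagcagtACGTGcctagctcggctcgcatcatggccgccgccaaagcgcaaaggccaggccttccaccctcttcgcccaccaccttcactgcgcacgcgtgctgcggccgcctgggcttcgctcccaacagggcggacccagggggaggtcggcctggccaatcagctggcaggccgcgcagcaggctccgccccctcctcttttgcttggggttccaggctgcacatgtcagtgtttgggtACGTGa
Bnip3 (chr7:138909507-138909756, minus strand): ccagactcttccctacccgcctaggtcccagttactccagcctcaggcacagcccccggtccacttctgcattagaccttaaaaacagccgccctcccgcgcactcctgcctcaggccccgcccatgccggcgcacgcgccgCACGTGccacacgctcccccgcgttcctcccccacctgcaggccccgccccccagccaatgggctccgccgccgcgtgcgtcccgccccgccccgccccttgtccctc
The run in capitals in Bnip3 reads the same on both strands, so it counts as a match on each. All 3 windows hold the motif, which stands in 21.8% of the windows of 11236 tested genes and in 16.6% of all 27025. The 3 genes come from a list of hypoxia genes, Egln3 and Ankrd37 being known HIF targets, and were picked by their rise. These windows are thus no test of the motif, and those of list members that rose less were not counted apart. Of the 15 genes with the largest rise, 10 had an entry and 4 held the motif. The same search for AGATAA, a form of the GATA factor motif, in genes of the endoderm list that fell by at least 1 found it in 0 of 6 windows (12 genes in the set), and in 1 of 11 windows of the largest falls, against 5.6% of tested genes and 10.3% of all. A match describes these letters and does not show binding, and no match says only that they are not in this window.

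Egln3 (chromosome 12, 54178981 to 54203860), a prolyl hydroxylase that marks HIF for destruction and is itself a HIF target, was at 4.66 and 4.74 FPKM in WT and at 30.9 and 29.7 FPKM in KO. That is a rise of 2.46 ± 0.07 (SE, limma adjusted p = 1e-15). Ankrd37 (chromosome 8, 45996902 to 46005707), an ankyrin-repeat gene known as a HIF target, was at 8.4 and 8.32 FPKM in WT and at 38.5 and 37.8 FPKM in KO, a rise of 2.06 ± 0.06 (SE, limma adjusted p = 4.26e-15). Neither gene overlapped between the lines. Bnip3, a mitophagy receptor, rose by 1.03, the glucose transporter genes Slc2a3 and Slc2a1 by 1.07 and 0.77, the glycolytic enzyme gene Pfkl by 0.90 and the growth factor gene Vegfa by 1.00. The enzyme genes Ldha, Aldoa and Eno1 moved little, while Pgk1, also of glycolysis, rose by 0.56 (0.44 after rescaling). Ldha was at 1899 and 1898 FPKM in WT and at 2029 and 2010 FPKM in KO, a change of 0.09 that was -0.031 after rescaling, Aldoa gave 0.09 and -0.029, and Eno1 fell by 0.18. Car9, a carbonic anhydrase and a common hypoxia marker, was at 0.56 and 1.1 FPKM in WT and at 0.69 and 0.42 FPKM in KO, with no call.

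The largest rise that the naming rule gave was Adm (chromosome 7, 110627661 to 110629820), the vasodilator peptide adrenomedullin and a known HIF target. It was at 1.4 and 1.23 FPKM in WT and at 21.2 and 20.3 FPKM in KO, a rise of 3.24 ± 0.08 (SE, limma adjusted p = 1.91e-16). Ndufa4l2, a mitochondrial protein gene induced by low oxygen, was at 16.5 and 16.8 FPKM in WT and at 101 and 94.5 FPKM in KO, a rise of 2.48. Bhlhe40, a repressor of the clock and hypoxia networks, rose by 2.25, Aldoc, an aldolase, by 2.11, P4ha2, a collagen prolyl hydroxylase, by 1.91 and Anxa2, a calcium-dependent membrane protein, by 2.21. For Egln3 the lines differed in time. It was at 0.65 and 0.64 FPKM in WT and 1.25 and 1.35 FPKM in KO at day 0, and at day 4 it was at 20.6 and 21.2 FPKM in WT and 20.6 and 19.8 FPKM in KO, where the lines overlapped. From day 0 to day 2 the signed difference moved up for 12 of the 16 list members and down for none (11 and 3 after rescaling). Among all genes it moved up for 35.6% and down for 13.2%. From day 2 to day 4 it moved down for 12 members and up for 1, against 22% and 20.4% of all genes.

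Targets of p53, the factor that answers DNA damage and other stress, were also higher in KO at day 2. Of 15, 12 rose and 1 fell (10 and 3 after rescaling), where 37.5% of all genes were higher and 21.3% lower. The list median was 0.61 (0.49 after rescaling) against -0.38 at day 0. Perp (chromosome 10, 18845020 to 18857073), a membrane protein of cell adhesion and death, was at 3.27 and 3.49 FPKM in WT and at 16.4 and 15.6 FPKM in KO, a rise of 1.96 ± 0.08 (SE, limma adjusted p = 3.74e-13). Btg2, an antiproliferative gene, was at 7.48 and 8.31 FPKM in WT and at 18.5 and 18.9 FPKM in KO, a rise of 1.15 ± 0.05 (SE, limma adjusted p = 2.07e-13). KO libraries lay above WT for both. Phlda3, an inhibitor of Akt, rose by 1.11, the kinase gene Plk2 by 0.71, Cdkn1a, the cell cycle inhibitor p21, by 0.62, Bbc3, the death effector Puma, by 0.62 and Mdm2, the ligase that degrades p53, by 0.61. Pmaip1, the death effector Noxa, fell by 0.30, and Ccng1 was at 77.9 and 77.8 FPKM in WT and at 76.6 and 76.8 FPKM in KO, called lower only after rescaling (-0.14). From day 0 to day 2 all 15 rose in KO, where 37.2% of all genes rose. In WT 6 rose and 6 fell, where 27.4% and 36% of all genes did. The signed difference between the lines moved up for 14 and down for none (14 and 1 after rescaling), against 35.6% and 13.2% of all genes. Its size was larger at day 2 for 7 of the 14 and at day 0 for the other 7.

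The genes of cholesterol synthesis moved in opposite directions in the lines. From day 0 to day 2 all 14 fell in WT, where 36% of genes fell, and 12 rose and none fell in KO, where 37.2% rose. The signed difference between the lines moved up for 14 of 14, also after rescaling, where it moved up for 35.6% of all genes as deposited. For 10 of the 14 its size had been larger at day 0. At day 2, 12 were higher in KO and none lower (9 and 1 after rescaling), where 37.5% of all genes were higher and 21.3% lower. The list median was 0.36 (0.25 after rescaling) against -0.52 at day 0. Msmo1 (chromosome 8, 64718139 to 64733792), a sterol methyl oxidase, was at 87.6 and 78.9 FPKM in WT and 57.6 and 58.7 FPKM in KO at day 0. At day 2 it was at 53.6 and 52.7 FPKM in WT and at 111 and 112 FPKM in KO, a rise of 1.06 ± 0.04 (SE, limma adjusted p = 4.43e-14). The order of the lines had thus turned, with no overlap at either day. Dhcr7 (chromosome 7, 143823145 to 143848410), the enzyme of the last step to cholesterol, was at 22.1 and 22.5 FPKM in WT and at 56.8 and 55.1 FPKM in KO, a rise of 1.29 ± 0.07 (SE, limma adjusted p = 8.24e-12).

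**Figure D5:**
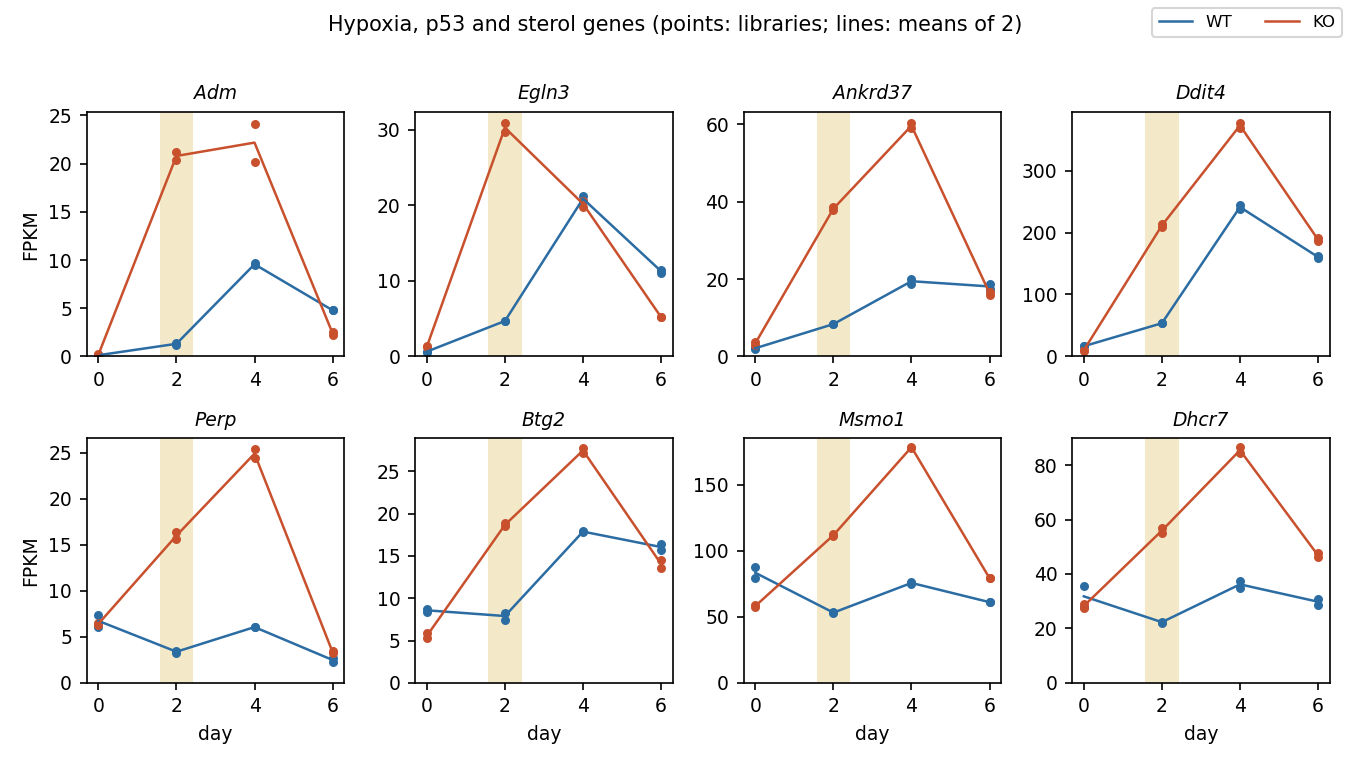
FPKM of 8 hypoxia, p53 and sterol genes (vertical axis) against day (horizontal axis) in WT and KO, each point a library and each line the mean of 2. At day 2 (shaded) every KO point lies above every WT point. By day 4 Egln3 no longer separates the lines, and at day 0 Ddit4, Msmo1 and Btg2 were lower in KO.

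Cell cycle genes moved in both directions. Of 17, 9 were higher in KO and 7 lower, with a median of 0.21 (0.088 after rescaling), where 37.5% of all genes were higher and 21.3% lower. Ccnd2, a D-type cyclin, and Cdk6, a kinase partner of these cyclins, rose by 1.35 and 1.25. The mitotic cyclin Ccnb1 was at 130 and 128 FPKM in WT and at 74.2 and 76.1 FPKM in KO, a fall of 0.78, and Ccna2, the S and G2 cyclin, fell by 0.63. Of 12 genes tested in the integrated stress response, 2 were higher in KO and 6 lower, with a median of -0.15, while after rescaling 2 were higher and 9 lower, with a median of -0.26. Its central factor Atf4 fell by 0.50 and its target Ddit3 by 0.62. Ddit4, an inhibitor of mTORC1 that hypoxia and p53 also switch on, went the other way, from 53.2 and 54.1 FPKM in WT to 215 and 208 FPKM in KO, a rise of 1.96 ± 0.04 (SE, limma adjusted p = 1.61e-16).

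Early neural genes were mostly higher in KO. Their summed level was 262 and 264 FPKM in WT and 292 and 291 FPKM in KO, and single members ranged widely. Of 18, 12 rose and 3 fell (11 and 3 after rescaling), where 37.5% of all genes were higher and 21.3% lower. The list median was 0.49 (0.38 after rescaling) against 0.053 at day 0. Fabp7 (chromosome 10, 57784881 to 57788450), a fatty acid binding protein of radial glia, was at 1.31 and 1.17 FPKM in WT and at 8.86 and 10.0 FPKM in KO, a rise of 2.22 ± 0.11 (SE, limma adjusted p = 3.79e-12). Ptn, a neurite-promoting growth factor, rose by 1.26, Sox1, the earliest neural plate factor, by 0.62 and Sox3 by 0.53. Sox1 was nonetheless at only 0.82 and 0.91 FPKM in WT and 1.91 and 1.81 FPKM in KO. Its day 0 means were 3.9 FPKM in WT and 2.405 FPKM in KO, so its mean was lower at day 2 than at day 0 in both lines. Tubb3, a neuronal tubulin, fell by 0.41 and Hes3, a Notch-related repressor, by 0.70. Pax6, at 0.59 and 1.47 FPKM in WT and 2.47 and 2.38 FPKM in KO, rose by 0.79 in the fit of all groups and was not called in a fit of the compared groups alone (limma adjusted p = 0.0718). Without WT replicate 1 its change was 0.47, and without WT replicate 2 it was 1.11.

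In the eye-field and anterior list 6 of 12 were higher in KO and 1 lower, where 37.5% of all genes were higher and 21.3% lower. The list median was 0.20 (0.18 after rescaling), and its summed level was 6.62 and 7.72 FPKM in WT and 12.0 and 12.9 FPKM in KO. Irx3 (chromosome 8, 91798525 to 91802067), a homeobox factor of the posterior forebrain and beyond, was at 0.59 and 0.63 FPKM in WT and at 4.67 and 4.13 FPKM in KO, a rise of 1.74 ± 0.06 (SE, limma adjusted p = 1.23e-14). Mab21l2, an eye and midbrain gene, rose by 1.21. Hesx1, an anterior repressor, was at 4.38 and 4.88 FPKM in WT and at 2.06 and 2.47 FPKM in KO, a fall of 0.79. The eye-field factors Rax, Six6 and Lhx2 were called higher by 0.25, 0.24 and 0.66 at levels under 2 FPKM, and Six3 was not called. The calls of Rax and Lhx2 were not kept in a fit of the compared groups alone (limma adjusted p = 0.0948 and 0.131), and that of Rax not without WT replicate 1 (0.16, limma adjusted p = 0.0676). The change of Lhx2 was 0.33 without KO replicate 2 and 0.99 without KO replicate 1.

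Apart from Mettl3, 11 of 18 genes of the m6A machinery were higher in KO and 4 lower (9 and 5 after rescaling), with a median of 0.25 (0.14 after rescaling). Of all genes 37.5% were higher and 21.3% lower. Among the writer's partners Rbm15, an RNA-binding adaptor, was at 6.71 and 6.47 FPKM in WT and at 14.6 and 13.9 FPKM in KO, a rise of 1.01 ± 0.05 (SE, limma adjusted p = 1.03e-12). Wtap, the regulatory subunit, rose by 0.68, while Mettl14, the RNA-binding partner of METTL3, fell by 0.19. Among the readers, the YTH genes Ythdc1, Ythdf2 and Ythdf1 rose by 0.86, 0.69 and 0.51, and the insulin-like growth factor 2 binding protein genes Igf2bp2 and Igf2bp3 fell by 0.69 and 0.55. Both erasers, Fto and Alkbh5, rose, by 0.64 and 0.55. Mettl14, Igf2bp2 and Igf2bp3 kept their fall after rescaling, and Rbm15, Wtap, the YTH genes and the erasers their rise.

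Imprinted genes, which are expressed from the allele of a single parent, gave 6 higher in KO and 9 lower of 18. The list median was -0.02 (-0.12 after rescaling). Of all genes 37.5% were higher and 21.3% lower. Sfmbt2, a Polycomb-related gene, was at 5.86 and 5.12 FPKM in WT and at 0.5 and 0.44 FPKM in KO, a fall of 2.14 ± 0.07 (SE, limma adjusted p = 8.33e-15), and was already lower at day 0 (-2.48). The noncoding RNA H19 fell by 1.19 and Mest, a hydrolase, by 1.07. Dlk1, a Notch-like ligand, rose by 1.42. Of 15 Polycomb and chromatin genes 4 were higher and 8 lower (4 and 9 after rescaling), with a median of -0.18 (-0.30 after rescaling).

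Several lists hold markers of other cell types. The summed level of 9 tested fibroblast genes was 19.0 and 19.8 FPKM in WT and 29.0 and 26.3 FPKM in KO, and its largest change was the mesenchymal factor Twist1, which went from 3.57 and 2.81 FPKM to 16.5 and 16.2 FPKM. The other called fibroblast genes were 2 higher and 2 lower. Of 7 trophoblast genes tested of 10, 3 were higher and 2 lower, near the 37.5% and 21.3% of all genes. Of 7 genes of the state like the embryo of 2 cells, tested of 10, 4 were higher and none lower. The summed level of these 2-cell-like genes was 86.7 and 87.6 FPKM in WT and 112 and 111 FPKM in KO. Their median was 0.32 (0.23 after rescaling), against 0.615 at day 0. Among 11 epithelial and mesenchymal genes 6 were higher and 2 lower (3 and 3 after rescaling), with Cdh1, the epithelial cadherin, higher by 0.39.

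The fusion libraries gave a second comparison at the same day. Dex against no Dex called 7204 genes (44.3%), 2070 higher with Dex (12.7%) and 5134 lower (31.5%), of which 76 changed by at least 1 (0.467%). After rescaling 50.1% of the calls were higher with Dex, as against 28.7%, so the lists are given both ways. The Dex group differs from its control by the drug and by the labelled place of the fusion, and these cannot be told apart. Of the 15 genes with the largest fall in KO, 13 were higher with Dex and none lower (15 and 0 after rescaling). Srgn was at 4.2 and 3.89 FPKM without Dex and at 9.33 and 9.46 FPKM with it, and Amn at 1.45 and 1.32 and at 3.76 and 3.42 FPKM. Both stayed below the WT libraries. Of the 15 genes with the largest rise in KO, 9 were lower with Dex and 1 higher (9 and 3 after rescaling). Of the 18 endoderm genes 12 were higher with Dex and none lower, with a median of 0.25 against -0.081 for all genes; after rescaling these were 14 and 0, with a median of 0.28.

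The Nodal list ran opposite in this comparison to KO against WT, with 8 of 9 lower with Dex, 1 higher and a median of -1.05 (-0.97 after rescaling, with the same counts). Nodal was at 8.95 and 9.38 FPKM without Dex and at 3.75 and 3.96 FPKM with it, the latter under the WT libraries as well. Naive genes were lower with Dex in 14 of 16 and higher in none, and after rescaling lower in 12. Nanog was at 31.7 and 31.8 FPKM without Dex and 16.7 and 16.9 FPKM with it. Targets of p53 were lower in 12 of 15 and higher in none, and after rescaling lower in 11. The glycolysis and hypoxia list was different, with 8 of 16 higher and 3 lower (10 and 3 after rescaling). Egln3 was at 18.8 and 19.0 FPKM without Dex and at 18.7 and 18.4 FPKM with it (limma adjusted p = 0.807), and Adm was not called either (0.13, limma adjusted p = 0.195). Of the sterol list 1 of 14 was higher with Dex and 7 were lower, but after rescaling 4 were higher and 3 lower.

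Changes at day 2 went with features of the transcripts, described here without a test because genes share many of these features. Coding genes were taken where the higher of the WT and KO means at day 2 was at least 5 FPKM. A gene could thus enter through 1 line alone. They were split into 5 groups of equal size by the number of exons of the longest coding transcript. The median change was 0.27 for genes with 1 to 4 exons and fell in order to 0.009 for those with 16 to 115 exons. Of these 2 groups 60.0% and 34.4% were called higher. By GC content the median ran from -0.094 in the group with the lowest, of which 25.6% were called higher, to 0.28 in the group with the highest, of which 61.6% were. By matches to GGACT, a frequent form of the m6A motif, per kb of transcript it ran from 0.015 to 0.17. After rescaling the medians ran from 0.15 to -0.10 by exon number, from -0.205 to 0.164 by GC content and from -0.099 to 0.057 by GGACT, so the order was kept between these end groups and the sign of several groups was not. By the length of the longest exon it showed no steady order, between 0.021 and 0.13. At day 0 the median by exon number also fell in order, from 0.12 to -0.17, and by GC content it also rose in order, from -0.099 to -0.001. Coding genes that rose by at least 1 (516) had a median of 5 exons and 55.0% GC, those that fell by at least 1 (144) 7 exons and 48.6% GC, and the other 12926 coding genes 9 exons and 50.5% GC. GC content and library preparation were not separated here, and their part in the result was not tested.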

How the data were processed

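Polyadenylated RNA was sequenced as paired-end reads, per the labels. The authors deposited 1 table of FPKM for 55492 rows and 32 libraries; STAR, Cuffdiff and mm10 are named in the submitters' processing notes, without versions or settings. Of the rows, 21161 were at 0 in every library. Because the authors deposited FPKM and not counts, tests used limma 3.58.1 in R 4.3.3 on log2(FPKM + 1), as a linear model with moderated, trended variances. Genes with at least 1 FPKM in at least 2 libraries (16276) entered a single fit of 16 groups of 2 libraries with 16 residual degrees of freedom. Calls are two-sided at a Benjamini-Hochberg adjusted p under 0.05. All columns matched a sample.

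Named genes were Mettl3, members of 26 lists, the 15 largest rises and 15 largest falls at day 2, and the 8 largest in each direction of the day 2 minus day 0 difference, among called genes with no overlap, at least 5 FPKM in the higher group, a direction kept after rescaling, and an established symbol. The comparison and the lists were chosen with earlier results of these data known. The smallest steps among low FPKM gave an estimate of depth, since 87.0% to 89.8% of these values lay within 0.2 of a whole fragment; 3 fragments on a 2 kb transcript then equal 0.0293 to 0.0464 FPKM in the day 2 KO and WT libraries, covering counting error only. The same-numbered duplicates were not paired: deviations of WT and KO at day 2 correlated at 0.076, and over 120 pairs of groups at -0.088 to 0.125. Gene positions come from GENCODE M21 (GRCm38), which matched 99.5% of rows by gene ID, and promoter windows from RefSeq GRCm38.p6. The fit was tested on simulated data. Alternatives were a pseudocount of 0.1, no filter, a mean of at least 5 FPKM, median-of-ratios rescaling, a fit of the compared groups alone, the replicate block, leaving out chromosome 8 genes, and leaving out each library. Some members of the lists are counted in them but not reported here by name.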

Additional observations from a re-analysis of the deposited data

Results flagged for a closer look

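For 13 named genes the difference between KO and WT had opposite signs at day 0 and day 2, each called and at least 0.5 in size, with a called difference between the days; both signs were kept after rescaling for all 13. They are part of 1619 genes with opposite called signs, of which 1246 were higher in KO at day 2 and 105 had both sizes at 0.5 or more. The change in the difference from day 0 to day 2 was 2.94 for Anxa2, 2.85 for P4ha2, 2.68 for Ptprv, a phosphatase-like receptor gene that p53 induces, and 2.62 for Ddit4. It was 2.37 for Tap1, a peptide transporter of antigen presentation, 1.69 for Btg2, 1.57 for Msmo1, 1.55 for Plk2 and 1.39 for Bbc3. For the sterol gene Lss, lanosterol synthase, it was 1.29, and for Sox1 1.14. Hesx1 and Cited1 went the other way, at -1.31 and -2.41. Over all genes tested, the difference between the lines changed between day 0 and day 2 for 7952 genes (48.9%) and between day 2 and day 4 for 6893 genes (42.4%), by the interaction contrasts of limma. Day 2 libraries enter both of these counts. Groups of 2 libraries allow no test for an outlying library.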

How the results depend on the processing

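The number of genes called with a change of at least 1, 769 as reported, was 1856 with a pseudocount of 0.1 and 441 with a mean of at least 5 FPKM, which left 9412 genes to test. The counts of called genes for KO against WT, for both interactions and for Dex stayed within 1.5 times their value under every alternative run. Rescaling moved the share of higher calls from 63.8% to 50.6% for KO against WT, from 73.0% to 55.4% for day 2 minus day 0, and from 28.7% to 50.1% for Dex against no Dex. Leaving out 1 library at a time gave 8461 to 8525 genes called, 765 to 807 with a change of at least 1, 7107 to 7750 for day 2 minus day 0, 5994 to 6218 for day 4 minus day 2 and 5873 to 6043 for Dex; the lone library was then assumed to vary like the other groups.

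Duplicates share only a number, and with the replicate block the counts were 9559, 768, 7904, 6828 and 7173 in the same order, and no call of a named gene changed. Directions turned in these cases, and the cause was not tested. With a mean of at least 5 FPKM the list medians of the BMP pathway, trophoblast and 2-cell-like genes were -0.064, -0.186 and -0.064. After rescaling Ldha gave -0.031, Aldoa -0.029 and the trophoblast median -0.007. Without chromosome 8 genes the LIF median was -0.004. Over the 4 fits that leave out 1 library, Mettl3 ran from -0.064 to 0.004, Lamc1 from -0.079 to 0.005, Esrrb from -0.041 to 0.009 and the trophoblast median from -0.051 to 0.185. In a fit of the compared groups alone Afp, Pax6, Lhx2 and Rax were not called. FPKM keeps no counts, so genes near 0 have no exact counting error.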

Other observations

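Some genes with large differences are not described above. Svop, a synaptic vesicle protein gene, was at 0.14 and 0.08 FPKM in WT and at 4.89 and 5.39 FPKM in KO, and after a rise of 2.47 at day 2 its difference at day 4 was 2.37. Nkx2-4, a homeobox gene of the ventral forebrain, was at 0.96 and 0.88 FPKM in WT and at 7.83 and 8.16 FPKM in KO, and it was lower with Dex by 1.24 (limma adjusted p = 2.42e-07). Chd3, a subunit of the NuRD chromatin remodeller, was at 3.42 and 3.79 FPKM in WT and at 18.9 and 17.4 FPKM in KO, and it was also lower with Dex (-0.92). Nxf7, an X-linked gene of the RNA export factor family, was at 6.97 and 7.75 FPKM in WT and at 0.13 and 0.14 FPKM in KO. Peg10, an imprinted gene derived from a retrotransposon, was at 76.6 and 72.4 FPKM in WT and 23.3 and 23.8 FPKM in KO at day 0, and at 40.8 and 41.1 FPKM in WT and 34.8 and 35.4 FPKM in KO at day 2, so that its fall shrank from -1.62 to -0.22.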
